A study of Mus musculus with 32 samples.

Results

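The intermediate filament genes *Krt8*, *Krt18*, *Des*, *Vim*, *Nes* and *Synm* were followed across age and genotype in mouse skeletal muscle, 6 of the 54838 genes in the count table. They were picked by name, with differences between genotypes in these data already known, so the comparison of KO with WT is given for them as a description, with no *P*; where the limits for a DEG are applied to them, this describes the fitted values and supports nothing. The tissue was whole tibialis anterior (TA) muscle of C57BL6/J mice. *Mtm1* KO mice lack exon 4 of *Mtm1*, the X-linked gene for the lipid phosphatase myotubularin that is mutated in X-linked myotubular myopathy. The deletion is present in every cell, and WT littermates served as controls. Each genotype was sampled at postnatal day 1 (P1), P14, P21 and P35 with 4 libraries per group and 32 libraries in all. Replicates were separate samples by their labels, and P-values measure the spread between them. The WT libraries were part of the comparisons known when the genes were picked. The *P* of the WT age steps and of the WT ratios to *Des* is therefore not independent of that choice.

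Intermediate filaments are the non-contractile cables of the cytoskeleton. Keratins assemble as obligate pairs of a type II chain, such as keratin 8 (*Krt8*), with a type I chain, such as keratin 18 (*Krt18*), and this pair is the one known from simple epithelia. Desmin (*Des*) is the main filament protein of mature muscle, where it ties neighbouring Z-discs to each other and to the membrane. Vimentin (*Vim*) is the filament of mesenchymal cells and is also made by young myogenic cells. Nestin (*Nes*) and synemin (*Synm*) are large proteins that enter filaments together with desmin or vimentin; nestin is known from myoblasts, immature fibres and the postsynaptic region, and synemin from Z-discs and costameres.

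*Krt8* (ENSMUSG00000049382) lies on the minus strand at chr15:101996698-102004482 in GRCm38, and *Krt18* (ENSMUSG00000023043) lies on the plus strand at chr15:102028180-102032027, with 23697 bases between them. *Des* (ENSMUSG00000026208) lies at chr1:75360329-75368579, *Vim* (ENSMUSG00000026728) at chr2:13573927-13582826 and *Nes* (ENSMUSG00000004891) at chr3:87971078-87980451, all on the plus strand. *Synm* (ENSMUSG00000030554) lies on the minus strand at chr7:67730160-67759742. The bases directly upstream of the annotated starts of *Krt8*, *Krt18* and *Des* are shown because the keratin neighbours moved together and *Des* moved with them at the later ages. They come from RefSeq (GRCm38.p6), read 5′ to 3′ on the gene's strand, and stop before the earlier of the RefSeq and GENCODE starts. Capitals mark CAGCTG, an E-box of the kind bound by myogenic factors.
Krt8, chr15:102004483-102004592, minus strand: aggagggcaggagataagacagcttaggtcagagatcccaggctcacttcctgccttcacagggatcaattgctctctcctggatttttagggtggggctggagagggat
Krt18, chr15:102027966-102028179, plus strand: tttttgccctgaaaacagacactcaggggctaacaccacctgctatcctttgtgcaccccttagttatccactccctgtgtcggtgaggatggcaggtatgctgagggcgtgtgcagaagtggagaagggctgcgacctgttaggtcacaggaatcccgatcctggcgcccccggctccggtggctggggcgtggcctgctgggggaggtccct
Des, chr1:75360042-75360291, plus strand: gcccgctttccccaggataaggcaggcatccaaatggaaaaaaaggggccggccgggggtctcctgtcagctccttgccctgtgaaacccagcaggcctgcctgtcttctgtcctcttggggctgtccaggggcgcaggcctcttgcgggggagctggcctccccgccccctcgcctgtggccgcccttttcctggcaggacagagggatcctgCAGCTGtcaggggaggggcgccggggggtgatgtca
The RefSeq windows of 300 bases, from 250 before to 50 after the start, were searched on both strands for 3 motifs. CAGCTG occurred once in the *Des* window and once in the *Krt8* window, the latter outside the stretch shown, and 16.3% of 32851 promoter windows held it. TATAAA occurred at 2 places in the *Krt8* window and at 1 in the *Vim* window, again outside what is shown, against 13.6% of all windows. TGANTCA, the core bound by AP-1, was found in none of the 6 windows and in 7.81% of all windows. These matches describe the letters only.

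Library totals ran from 49321035 to 85631408 counts. Levels are CPM (counts scaled to library size) after 1 TMM scaling over all 32 libraries. Folds are log2 differences fitted by edgeR within each pair of groups, with an approximate standard error (SE). The SE was taken as the absolute log2 fold change divided by the square root of F from edgeR's quasi-likelihood test. A gene was called differentially expressed (DEG) at an adjusted *P* under 0.01 together with an absolute log2 fold change over 0.585. *Mtm1* was lower in KO at every age without overlap, with log2 fold changes from -2.71 at P21 to -0.98 at P1, and residual KO levels were 2.32 to 4.51 CPM. Scaling by library totals instead of TMM shifted the median difference of all genes between KO and WT, on the log2 scale, to 0.04 (P1), 0.09 (P14), 0.20 (P21) and 0.44 (P35).

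KO replicate 4 at P1 stood apart from the other 7 P1 libraries. It held 26.0 CPM of *Krt19* against 0.184 to 0.354, 8.57 CPM of *Cldn7* against 0.0702 to 0.160, 8.33 CPM of *Nefl* against 0.456 to 0.866 and the lowest *Des* of the P1 libraries, 1071 CPM. *Krt19* and *Cldn7* are epithelial genes and *Nefl* is a neuronal one. The P1 log2 fold change of *Mtm1* was -1.19 without it. With and without this library, the P1 log2 fold change was 0.09 and 0.09 for *Vim*, -0.10 and 0.07 for *Nes* and -0.29 and -0.16 for *Synm*. P1 differences of *Krt8*, *Krt18* and *Des* are given both ways below.

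In WT muscle *Krt8* and *Krt18* were at their highest at birth. *Krt8* measured 3.93, 3.64, 4.10 and 3.32 CPM at P1, 0.343, 0.455, 0.136 and 0.209 at P14, 0.0983, 0.0984, 0.0966 and 0.0238 at P21, and 0.0487, 0, 0.0237 and 0.0231 at P35. The libraries of P1 lay above all later ones, and those of P35 rested on 0 to 2 counts each. From P1 to P14 *Krt8* fell by 3.70 (SE 0.277, adjusted *P*=1.65e-06, edgeR's quasi-likelihood test) and *Krt18* fell by 2.20 (SE 0.228, adjusted *P*=1.34e-05) on the log2 scale, with 4 libraries per age. *Krt18* went from 1.54, 2.51, 1.96 and 2.06 CPM at P1 to values between 0.327 and 0.563 at P14, between 0.145 and 0.344 at P21 and between 0.138 and 0.257 at P35. Its further fall of 1.01 from P14 to P21 was not called (adjusted *P*=0.0468), and *Krt8* was too low to be tested after P14.

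Epithelial transcripts fell over the same interval. The summed level of 12 simple epithelium markers, which do not include the keratins 8 and 18, went from 37.6 to 106 CPM in the WT P1 libraries to 2.80 to 3.73 CPM at P14, and that of 12 epidermis markers, led by *Krt10* and *Krt1*, from 2195 to 6922 CPM to 14.2 to 20.2 CPM. Of the epidermis markers 11 of 12 were called lower at P14, and of the simple epithelium markers 10 of the 11 tested, with *Krt19* called higher. Of all 17435 genes tested at this step, 5297 were called lower and 4304 higher. *Krt8* itself spanned only 3.32 to 4.10 CPM among WT libraries at P1. The part of skin or other epithelium in the newborn keratin level was not tested.

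The muscle filament genes took different courses in WT (the plot of levels by library shows all 6 genes). *Vim* fell from 963 ± 70.3 CPM (SD, n=4) at P1 to 372 ± 35.4 at P14, 234 ± 55.2 at P21 and 220 ± 32.8 at P35. *Nes* fell from 359 ± 33.6 CPM at P1 to 193 ± 30.7, 156 ± 25.8 and 112 ± 13.3 at the later ages. *Synm* rose from 24.3 ± 2.89 CPM at P1 to 472 ± 68.3 at P14, 688 ± 70 at P21 and 1004 ± 199 at P35. Between P1 and P14 the changes of *Vim* (log2 fold change -1.38, adjusted *P*=9.34e-07), *Nes* (-0.91, adjusted *P*=6.81e-05) and *Synm* (4.27, adjusted *P*=2.57e-08) were called, so that 5 of the 6 genes passed where 55.1% of all tested genes did. *Des*, at 1686 ± 195 CPM at P1 and 2201 ± 383 at P14, was not called (log2 fold change 0.38, SE 0.143, adjusted *P*=0.0348), and its sign turned to -0.41 when libraries were scaled by their totals, which shifted the median of all genes at this step to -0.85.

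Later steps in WT were smaller. From P14 to P21, 5 of the 6 genes passed the filter on low counts and none was called, where 5.53% of genes were; *Vim* gave -0.67 (adjusted *P*=0.0168) and *Synm* 0.53 (adjusted *P*=0.0141). DESeq2 called *Vim* at this step (adjusted *P*=7.49e-04), where it called 8.74% of all genes. From P21 to P35, 4 genes passed the filter and none was called against 2.45% of all genes; *Synm* gave 0.53 (adjusted *P*=0.0342) and *Nes* -0.50 (adjusted *P*=0.0281). At an unadjusted *P* under 0.05 edgeR had 3 of the 5 (*Krt18*, *Synm*, *Vim*) at the former step, beside 6081 of all 15337 tested genes. At the latter it had 2 of the 4 (*Nes*, *Synm*), beside 5174 of 15039. Nothing is read from these counts. DESeq2 called 0 of the 4 at the latter (5.62% of all genes).

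**Figure D1:**
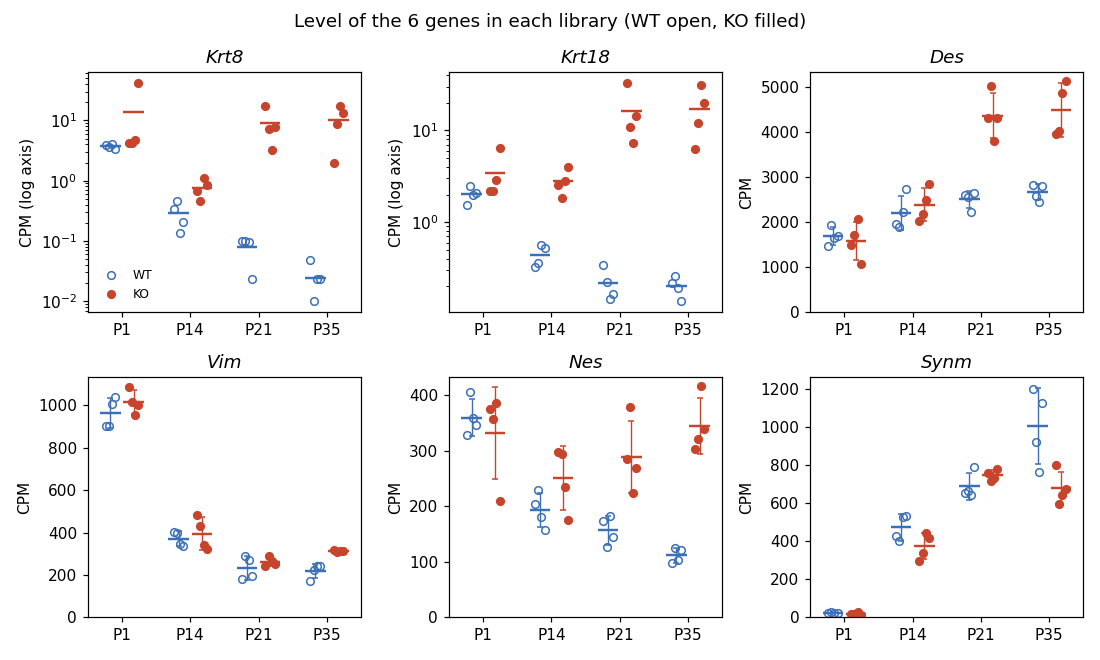
Level of each gene in every library in CPM, by age (WT open, KO filled; horizontal bars are means, vertical bars SD; keratin panels have a log axis and no SD, and the *Krt8* library at 0 is drawn at 0.01). The KO libraries of P21 and P35 lie above the WT libraries of the same age for *Krt8*, *Krt18*, *Des* and *Nes*; the KO libraries of *Vim* at P35 sit between 309 and 319.

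Measured per kilobase of exon, the order of the genes changed with age. At P1 in WT the level was 449 CPM per kb for *Des*, 203 for *Vim*, 56.0 for *Nes*, 3.06 for *Synm*, 1.91 for *Krt8* and 1.40 for *Krt18*. At P35 it was 708 for *Des*, 127 for *Synm*, 46.4 for *Vim*, 17.4 for *Nes*, 0.140 for *Krt18* and 0.0122 for *Krt8*. The ranges of neighbouring genes in these orders did not overlap, except for *Krt8* and *Krt18* at P1, whose ratio within a library was 1.07 to 1.87. *Des* made up 62.7 ± 2.52% of the 6 genes' summed level per kb at P1 and 78.8 ± 0.867% at P35 (SD, n=4). The share of *Vim* went from 28.5 ± 2.72% to 5.21 ± 1.02% and that of *Synm* from 0.428 ± 0.0188% to 14.0 ± 1.77%.

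The ratio to *Des* within a library does not depend on how libraries are scaled. In WT the log2 ratio of *Vim* to *Des* fell by 1.75 from P1 to P14 and by 0.89 from P14 to P21 (adjusted *P*=0.0367 each), and the step of -0.16 from P21 to P35 gave adjusted *P*=0.60. For *Nes* the steps were -1.28 (adjusted *P*=0.0367), -0.50 (adjusted *P*=0.161) and -0.56 (adjusted *P*=0.0367). For *Synm* the ratio rose at each step, by 3.90, 0.35 and 0.44 (adjusted *P*=0.0367 each). These are two-sided exact permutation tests of 4 against 4 libraries, adjusted over 9 tests, and the smallest *P* they can give is 0.0286 before adjustment.

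In KO muscle the keratins were high again at P21 and P35. *Krt8* measured 17.3, 7.24, 3.20 and 7.78 CPM in the KO libraries of P21, where no WT library exceeded 0.0984 CPM, and 1.95, 8.70, 17.5 and 13.1 CPM at P35. *Krt18* measured 33.0, 10.8, 7.28 and 14.3 CPM in KO at P21 and 6.24, 11.9, 31.1 and 19.7 CPM at P35. No KO library overlapped with a WT library of its age for either gene. The KO means at P21, 8.89 CPM for *Krt8* and 16.3 for *Krt18*, stood above the WT means at P1, 3.75 and 2.02 CPM, although individual KO libraries went as low as 3.20 CPM for *Krt8* at P21 and 1.95 at P35.

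Because the WT groups held few keratin reads, the size of the difference is given as a ratio of summed counts with an exact 95% interval, which covers counting error only and not the spread between mice. For *Krt8* at P21, 1619 counts in KO against 13 in WT gave a ratio of 110 (64.3 to 208), and at P35, 2584 against 4 gave 439 (171 to 1612). For *Krt18* the ratio was 73.1 (52.7 to 105) at P21, from 2972 and 36 counts, and 86.2 (61.6 to 125) at P35, from 4313 and 34 counts. The fitted log2 fold changes were 6.77 (SE 0.648) and 8.65 (SE 0.931) for *Krt8* and 6.21 (SE 0.573) and 6.43 (SE 0.577) for *Krt18*, at P21 and P35; they depend on the prior count. Both keratins passed the filter at these ages only through their KO libraries.

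At P14 *Krt18* was already apart. It measured 2.54, 1.82, 2.84 and 4.04 CPM in KO against at most 0.563 in WT, without overlap (3.08% of all genes were higher without overlap), a ratio of 6.29 (5.07 to 7.89; 649 and 95 counts). *Krt8* measured 0.671, 0.456, 1.09 and 0.852 CPM in KO, where the lowest library met the highest WT library at 0.455, and its ratio was 2.58 (1.93 to 3.48; 179 and 64 counts). At 7 to 25 counts, the WT P14 libraries of *Krt8* did not pass the filter in the WT step to P21. Its pass in the comparison with KO at P14 thus rested on KO, at 30 to 65 counts. None of the 6 genes was within the limits for a DEG at P14, as 0.0318% of all genes were in either direction. Same-numbered WT and KO libraries deviated together at this age, and when replicate number was fitted as a block *Krt18* came within them, as 0.623% of all genes did (98 against 5). *Krt18* also came within the limits under DESeq2, as 53 of 15728 genes did, and under scaling by library totals, as 6 did. This describes a gene chosen with its difference known, and its log2 fold change was 2.64 with the block and 2.66 without.

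At P1 *Krt8* measured 4.15, 4.27, 4.68 and 42.0 CPM in KO, the last being the library that stood apart, and *Krt18* 2.17, 2.19, 2.91 and 6.39. The log2 fold change of *Krt8* was 1.89 (SE 0.770) with that library and 0.23 (SE 0.102) without it, and that of *Krt18* was 0.78 (SE 0.350) and 0.28 (SE 0.179). The lowest KO library of *Krt8*, at 4.15 CPM, was just above the highest WT library, at 4.10, and *Krt8* was the 1 member whose groups did not overlap, where 4.49% of all genes were higher in KO without overlap. None of the 6 genes was within the limits for a DEG at P1, as 0.0442% of all genes were.

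The balance of the keratin pair shifted with age in both genotypes. Per kb of exon the ratio of *Krt8* to *Krt18* was 1.41 ± 0.362 (SD, n=4) in WT at P1, with *Krt8* above *Krt18* in all 4 libraries. In KO at P1 it was 1.18 to 4.83, also with *Krt8* above *Krt18* in all 4 libraries. At the later ages in KO it was 0.203 ± 0.0542 at P14, 0.400 ± 0.0708 at P21 and 0.417 ± 0.135 at P35. *Krt18* was above *Krt8* in all 12 of these libraries. In WT after P1 the ratio rested on few counts and ranged from 0 to 0.917, so that *Krt18* was above *Krt8* there too. KO libraries high in one keratin were high in the other: deviations from the group mean of log2 CPM correlated with r=0.95 over the 8 KO libraries of P21 and P35, which share depth and scaling.

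Few reads were assigned to the pseudogene of *Krt8* or to the gene that overlaps it. Whether reads of *Krt8* were assigned to the wrong gene was not tested. *Krt8* held values that were not whole numbers in 10 libraries, and its pseudogene *Krt8-ps* reached at most 0.224 CPM. *Gm36026*, a lincRNA that overlaps *Krt8* on the other strand, reached at most 0.0535 CPM.

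Per kb, *Des* was the most abundant of the 6 genes in every group, and it was higher in KO at the later ages. It measured 4314, 5019, 3800 and 4315 CPM in KO at P21 against 2228 to 2643 in WT, and 3955, 4012, 4855 and 5128 CPM at P35 against 2438 to 2816. The groups did not overlap, and the log2 fold changes were 0.81 (SE 0.102) and 0.78 (SE 0.124), or 1.00 and 1.18 under scaling by library totals. At P1 and P14 the libraries overlapped, with -0.08 (0.07 without KO replicate 4 of P1) and 0.11. The antisense gene *Gm15179*, which overlaps *Des*, was at 9.85 CPM or less.

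*Nes* departed from WT progressively with age. Its KO levels were 284, 378, 224 and 269 CPM at P21 against 126 to 182 in WT, and 302, 321, 416 and 338 CPM at P35 against 97.1 to 124, with no overlap at either age. The log2 fold changes were 0.38 (SE 0.181) at P14, 0.90 (SE 0.168) at P21 and 1.65 (SE 0.122) at P35. At P35 the KO mean of 344 CPM was close to the WT newborn mean of 359 ± 33.6 CPM. In KO the level at P14 was 250 ± 57.4 CPM (SD, n=4), so that *Nes* fell with age in WT while the KO means at P14, P21 and P35 were 250, 289 and 344 CPM, groups whose ranges overlapped from each age to the next.

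*Vim* differed less. At P21 KO libraries held 241, 292, 265 and 254 CPM and overlapped with WT at 180 to 292 (log2 fold change 0.17, SE 0.159). At P35 they held 319, 309, 314 and 315 CPM, above WT at 173 to 242, with a log2 fold change of 0.54 (SE 0.107), under the fold limit for a DEG. Under scaling by library totals it was 0.94.

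*Synm* did not share the higher KO level of *Des* at P35. Its KO libraries at P35 held 799, 597, 641 and 675 CPM against 766 to 1202 in WT, which overlapped (log2 fold change -0.54, SE 0.154; -0.14 under library totals). At P21 KO libraries held 757, 714, 734 and 778 CPM and WT libraries 643 to 792. The mean rose from P21 to P35 in WT, from 688 to 1004 CPM, and was 746 and 678 CPM in KO. *Ttc23*, which overlaps *Synm* on the other strand, was at 7.75 to 12.1 CPM in all libraries.

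Relative to *Des*, synemin was lower in KO at all 4 ages without overlap. Per kb of exon the ratio was 0.00591 ± 0.00043 (SD, n=4) in KO against 0.00682 ± 0.000209 in WT at P1 (0.00583 ± 0.00049, n=3, without KO replicate 4), 0.0741 ± 0.00731 against 0.102 ± 0.00856 at P14, 0.0818 ± 0.0103 against 0.13 ± 0.0109 at P21 and 0.0727 ± 0.0157 against 0.178 ± 0.0239 at P35. In WT it rose at each age, whereas KO libraries stayed between 0.0623 and 0.0956 from P14 on. The ratio of *Nes* to *Des* was 0.0384 ± 0.00413 in KO and 0.0369 ± 0.00840 in WT at P21, with overlapping libraries, and 0.0451 ± 0.00490 against 0.0246 ± 0.00326 at P35, without overlap. The ratio of *Vim* to *Des* at P35 overlapped, at 0.0562 ± 0.00739 and 0.0661 ± 0.0126. The 6 genes summed to 1372 ± 146 CPM per kb in KO against 828 ± 46.9 in WT at P21 and to 1418 ± 169 against 898 ± 68.8 at P35, and the keratin pair supplied 1.16 ± 0.80% and 1.17 ± 0.653% of the KO sums.

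**Figure D2:**
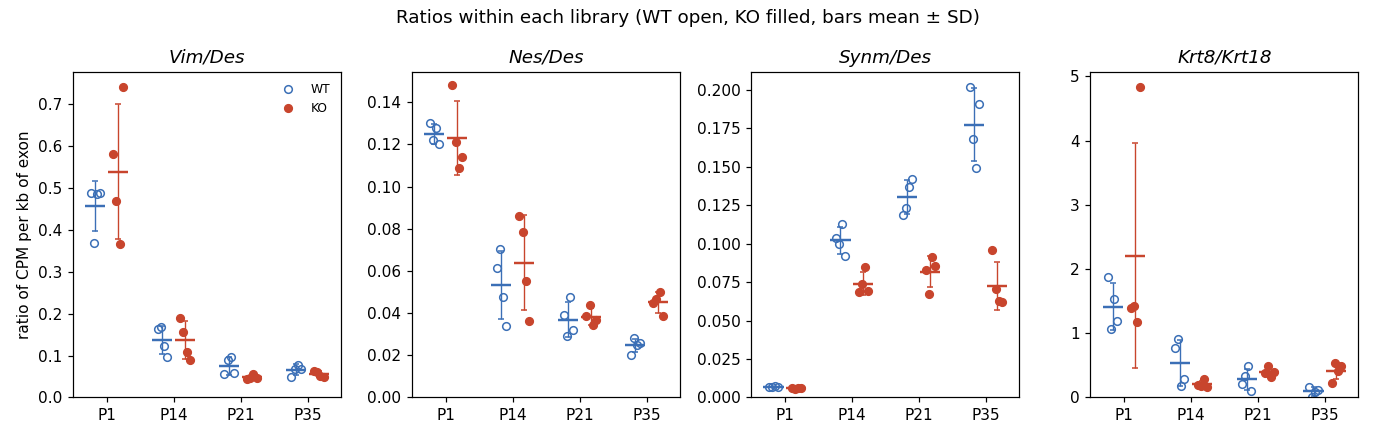
Ratio of CPM per kb of exon within each library for *Vim*, *Nes* and *Synm* over *Des* and for *Krt8* over *Krt18*, by age (WT open, KO filled, bars mean ± SD, n=4). *Synm*/*Des* climbs in WT to 0.178 at P35 while KO libraries remain at or under 0.0956, and the KO library at 4.83 for *Krt8*/*Krt18* at P1 is the one that stood apart.

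Of the 6 genes, *Krt8*, *Krt18*, *Des* and *Nes* had fitted values within the limits for a DEG, higher in KO, at P21, where 3.18% of all 15179 tested genes did, and these 4 also at P35, where 8.49% of 15595 genes did. Groups did not overlap, with KO higher, for these 4 at P21 (14.6% of all genes) and for 5, *Vim* included, at P35 (20.7%). All 6 passed the filter in the comparison of KO with WT at each age. As the genes were chosen with these differences known, and the keratins passed the filter through KO alone, nothing is read from these counts.

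**Figure D3:**
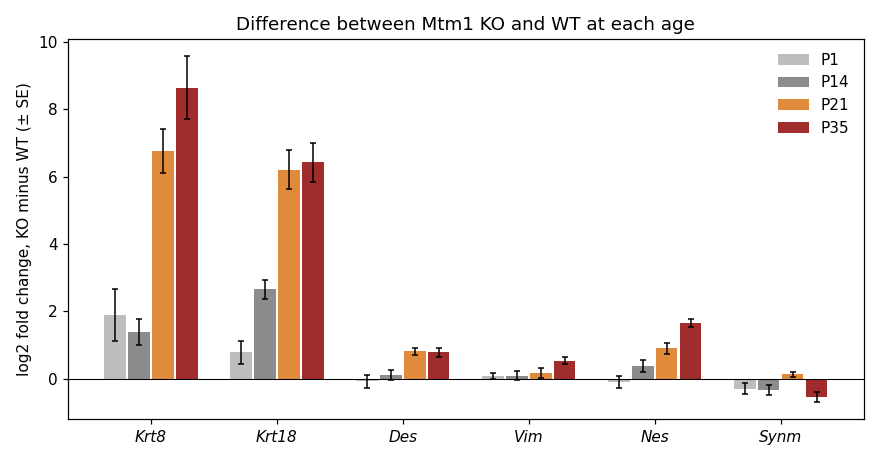
Fitted log2 fold change of KO against WT with its SE for each gene at P1, P14, P21 and P35 (4 libraries per group). The keratin bars at P21 and P35 reach 6.21 to 8.65, those of *Des*, *Vim* and *Nes* 0.17 to 1.65, and *Synm* is at 0.13 and -0.54; the P1 bar of *Krt8* (1.89) rests on 1 library and is 0.23 without it.

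The gene lists from here on, cell type lists included, were chosen with earlier results of these data known. Their calls and adjusted *P* therefore describe the fits and give no independent support to the members. Other cytoplasmic intermediate filament genes were mostly low at the later ages, whereas 19 of 20 passed the filter at P1. Of the 20 in the list, 6 passed the filter at P21 and 8 at P35. *Krt80*, an epithelial keratin, was called higher in KO at P21 (3.51 ± 0.438 against 1.68 ± 0.489 CPM, SD, n=4; log2 fold change 1.07, adjusted *P*=0.00759 in edgeR's test) and at P35 (7.20 ± 2.62 against 1.55 ± 0.608; 2.25, adjusted *P*=8.94e-04). *Krt7*, a type II keratin of simple epithelia, was called at P35, at 0.437 ± 0.141 CPM in KO. It passed the filter there only through KO, since no WT library held more than 1 count, and 109 counts against 3 gave a ratio of 24.7 (8.23 to 122, counting error only). The median log2 fold change of the tested genes in the list was 0.01 at P21 and 0.62 at P35, beside 0.01 and 0.04 for all genes. The P35 median covers only the 8 genes that passed the filter, with *Krt7* among them through KO alone. Nothing is read from it. None of the list was called lower at these ages, nor any at P1 or P14; the call of *Krt80* at P21 was lost when any of 7 of the 8 libraries was left out.

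Of the genes whose products link filaments to other structures, 1 was called higher at P21 and 3 lower at P35. Of 13 in the list, 10 passed the filter at P21, where only *Jup* (plakoglobin, of cell junctions and the costamere) was called, higher at 145 ± 16.3 against 96.6 ± 8.59 CPM (log2 fold change 0.59, adjusted *P*=0.00352). Its log2 fold change lay at the fold limit, and RLE size factors gave 0.57 and no call. At P35, 3 of 12 were called lower, where 7.52% of all genes were; the replicate block called 0, and 1 was called without WT replicate 3, WT replicate 4, KO replicate 1 or KO replicate 3. *Plec* (plectin, which anchors desmin to Z-discs and the membrane) was at 579 ± 68.8 against 910 ± 95.4 CPM (-0.63, adjusted *P*=0.00239), *Dst* (dystonin, a cytoskeletal linker) at 292 ± 23.4 against 460 ± 84.3 (-0.63, adjusted *P*=0.00581) and *Neb* (nebulin, of thin filaments) at 3207 ± 431 against 5741 ± 932 (-0.82, adjusted *P*=0.00309). Libraries of *Dst* overlapped. Scaled by library totals these 3 gave -0.22, -0.23 and -0.41 and were not called. The list median was -0.19 at P21 and -0.17 at P35.

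Small heat shock proteins and regulators of filament assembly and turnover were called only higher. All 14 listed genes passed the filter; 3 were called at P21 (3.18% of all genes were called higher) and 5 at P35 (8.49%), and the list median was 0.25 and 0.30. *Hspb8*, a small heat shock protein of the chaperone pathway that clears damaged muscle proteins, was at 632 ± 60.4 against 268 ± 29.0 CPM at P21 (log2 fold change 1.25, adjusted *P*=1.28e-04) and at 859 ± 177 against 339 ± 60.4 at P35 (1.37, adjusted *P*=4.18e-04). *Hspb1* gave 0.99 (adjusted *P*=0.00658) and 1.2 (adjusted *P*=6.07e-04), and *Cryab*, the desmin chaperone αB-crystallin, 0.69 (adjusted *P*=0.00899) and 0.90 (adjusted *P*=0.00582). At P35 *Cdk5r1*, the activator of the kinase Cdk5, for which nestin is a known scaffold, gave 1.64 (adjusted *P*=4.91e-04), and the kinase gene *Pak1* gave 0.88 (adjusted *P*=0.00206). None of the 14 was called at P1 or P14, and at P21 only 1 was called without WT replicate 1, WT replicate 2, WT replicate 3 or KO replicate 2.

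**Figure D4:**
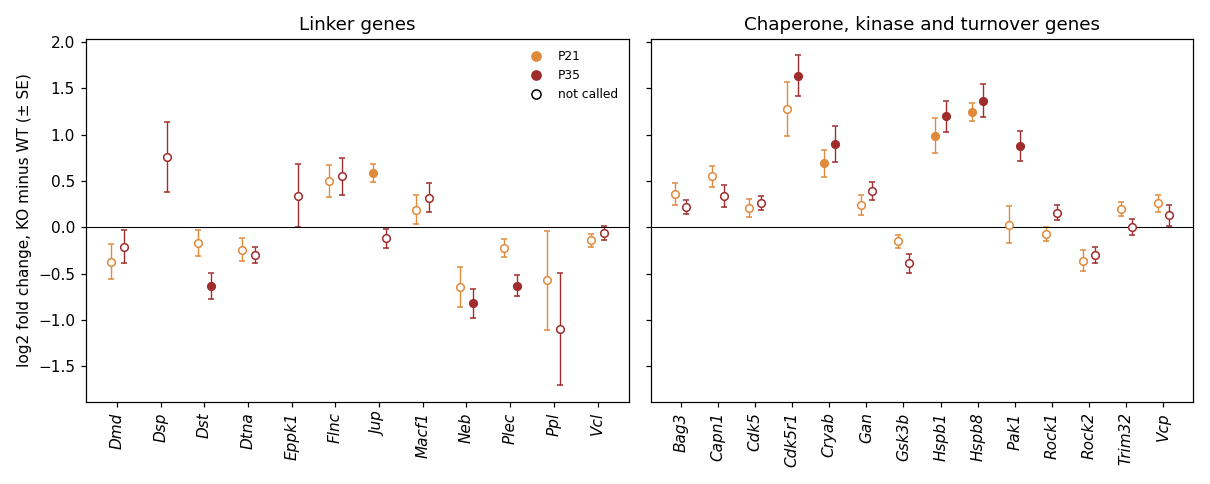
Log2 fold change of KO against WT with its SE at P21 and P35 for genes of the linker list (left) and of the chaperone, kinase and turnover list (right); filled points were called in edgeR's test. Points called on the left are *Jup* at P21 and *Dst*, *Neb* and *Plec* at P35, and those on the right run from 0.69 for *Cryab* to 1.64 for *Cdk5r1*.

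Over all genes, 3.18% were called higher and 1.5% lower in KO at P21, and 8.49% and 7.52% at P35, beside which the counts for cell type lists stand. In bulk muscle, a larger number of cells of a type and more RNA per cell cannot be told apart, so marker lists were read beside the members. Simple epithelium markers summed to 3.22 to 3.91 CPM in KO and 1.99 to 5.14 in WT at P21, and to 3.24 to 6.05 against 0.784 to 2.80 at P35. *Epcam* and *Cldn4* were at 3 counts or fewer in every library of both genotypes at P21. At P35 6 of the 12 markers in WT and 0 in KO were at 3 counts or fewer in every library of their group. This floor is in counts, and KO libraries of P35 held more counts per CPM than WT ones. For *Ttc23*, 571 counts were 9.53 CPM in KO replicate 1 and 425 were 10.3 in WT replicate 1. Of the 4 markers tested at P35 *Krt7* and *Elf3* were called higher. *Krt7* passed the filter only through KO, and *Elf3* was low in WT, at 0.136 ± 0.0502 CPM against 0.591 ± 0.28 in KO. Nothing is read from these calls. Epidermis markers summed to 39.1 to 48.8 CPM in KO against 11.8 to 14.7 in WT at P21 and to 43.7 to 59.8 against 14.5 to 17.0 at P35; the 3 called at each age, *Perp*, *Sfn* and *Trp63* (named after their values were seen), are also p53-family genes or targets. The defining epidermal genes *Krt5*, *Krt14*, *Krt15* and *Krt1* were at 3 counts or fewer in every P21 library of both genotypes, and *Krt10* was at 2.49 to 3.6 CPM in KO and 2.46 to 2.90 in WT. At P35 only *Dsg3* was at 3 counts or fewer in every library of both genotypes. At P14 simple epithelium markers summed to 2.93 to 4.32 CPM in KO and 2.80 to 3.73 in WT. Epidermis markers summed to 18.6 to 30.2 CPM in KO and 14.2 to 20.2 in WT at that age. At 3 counts or fewer in every library were 1 simple epithelium marker in KO and 5 in WT, and 2 and 7 epidermis markers. None of either list was called at P14. The part of epithelial cells in the keratin levels of KO muscle was not tested.

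Among muscle lineages, 5 of 6 immature fibre genes were called higher and *Actc1* lower in KO at P35, and *Myl4* and *Ncam1* were called higher and *Actc1* lower at P21. Their sum was 279 to 787 CPM in KO and 2188 to 2765 in WT at P35, where *Myh8* was at 15.9 to 48.0 CPM in KO and 5.71 to 16.2 in WT. In WT *Actc1* made up most of this sum, at 2147 to 2735 CPM against 51.7 to 500 in KO. From P1 to P14 in WT *Actc1* was called higher, whereas the other 5 genes of the list were called lower. At that step 4304 of 17435 tested genes were called higher and 5297 lower. Of 9 satellite cell and myoblast genes, *Myog* was called higher and *Pax7* and *Chrdl2* lower at both ages, with *Megf10* lower at P35; the sum was 126 to 199 CPM in KO and 93.4 to 113 in WT at P35. Mature fibre genes summed to 89415 to 118083 CPM in KO and 132052 to 184692 in WT at P35, with *Acta1* called lower of 10. Their part in the levels of *Nes* and *Vim* was not tested.

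Of the non-muscle lists, macrophage genes were called higher in KO, 4 of 10 at P21 and 6 of 10 at P35, with sums of 153 to 226 CPM against 117 to 149 at P35. Of 10 endothelial genes 4 were called lower at P35 (451 to 545 against 562 to 915 CPM), and of 10 smooth muscle genes 2 were called lower (1077 to 1223 against 1246 to 1663 CPM). Schwann cell genes had 1 of 9 called, *Ngfr*, higher at P35, with overlapping sums of 318 to 1213 and 103 to 575 CPM. Fibroblast genes, the cells in which *Vim* is abundant, had 1 of 12, *Fap*, called at P21 and none at P35, and their sums overlapped at 5017 to 7786 CPM in KO and 4530 to 6494 in WT at P35. The part of these cells in the members' levels was not tested.

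The genes most like each member over the 32 libraries, by Pearson's r of log2 CPM among 18583 genes, were as follows. For *Krt8* they were *Tiam2* (r=0.935), *Cdkn1a* (0.932), the cell cycle inhibitor p21, and *Rrad* (0.929). For *Krt18* they were *Fosl1* (0.959), a subunit of AP-1, *Il20rb* (0.95) and the transcription factor *Runx1* (0.949). *Fosl1* was at 1.51 ± 0.142 and 2.75 ± 1.80 CPM in KO at P21 and P35 and at or under 0.0246 CPM in every WT library of those ages. For *Des* they were *Hspb8* (0.967), the Z-disc gene *Pdlim3* (0.965) and *Zdhhc18* (0.960). For *Nes* they were *Ubash3b* (0.939), the tubulin gene *Tubb6* (0.939) and *Ncs1* (0.938). For *Vim* they were *Ddah2* (0.987), *Bex3* (0.987) and *Clic1* (0.986), and for *Synm* they were *Ano5* (0.995), *Phtf2* (0.995) and the Z-disc gene *Myoz3* (0.994). These correlations are descriptions over libraries that share age and genotype.

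Over the 16 libraries of P21 and P35 alone, the gene most like *Krt8* was *Krt18* and the reverse (r=0.985), and *Krt8* correlated with *Des* (0.94) and *Nes* (0.93) and with *Synm* at -0.49. These values include the difference between genotypes. Deviations from the group mean over the 8 KO libraries of these ages gave *Krt8* 0.64 with *Des*, 0.55 with *Nes* and -0.56 with *Synm*. Over all 32 libraries *Vim* and *Synm* ran opposite (r=-0.97), and *Krt8* with *Des* gave 0.11.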

How the data were processed

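RNA was sequenced from whole TA muscle of *Mtm1* KO and WT mice in 32 libraries, 4 per genotype and age. Polyadenylated RNA was made into libraries with the NEBNext Ultra II Directional kit. The submitters' processing notes name GRCm38, STAR 2.6.1, RSEM 1.2.22 and DESeq2, while the study's methods name HTSeq as the counter. The annotation release and the strand setting were not given in the sources used here. The deposited table holds expected counts per gene made by the authors, without normalization, of which 4.26% of the values were not whole; they were rounded. Library totals ran from 49321035 to 85631408. Groups were taken from the labels.

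Symbols and coordinates came from GENCODE M21 (54723 of 54838 identifiers) and promoters from RefSeq GRCm38.p6, where all 6 members were matched. Each pair of groups was fitted with edgeR 4.0.16 in R 4.3.3 (filterByExpr, TMM, quasi-likelihood test, Benjamini-Hochberg adjustment). Alternatives used DESeq2 1.42.0, RLE size factors, library totals, no filter, 1 fit over all 32 libraries, a replicate block, an adjusted *P* under 0.05 without a fold limit, and each library left out. The edgeR step was tested on simulated data. Log2 CPM for correlations had a prior count of 2, the floor for a marker was 3 counts, and ratios of summed counts carry conditional exact binomial 95% intervals. Python 3.11.15 with numpy 2.4.6, pandas 2.3.3, scipy 1.17.1 and matplotlib 3.10.9 served for the summaries.

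The members, 3 lists of related genes (other cytoplasmic intermediate filaments, linkers, and chaperones with turnover genes) and 10 cell type lists were chosen with earlier results of these data known. Genes were named where they were members, the 3 most correlated with a member, called genes of the 3 lists, or *Mtm1*; other names are said to be chosen later or describe a cell type list. No pair of replicates agreed within sampling noise (48 pairs, lowest chi-square per gene 11.2). Same-numbered libraries of KO and WT deviated together at P14 only (r from 0.30 to 0.73 over the pairs, by the data and not by a stated litter), so the blocked value is printed there.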

Additional observations from a re-analysis of the deposited data

Results flagged for a closer look

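In 48 groups of 4 libraries (6 genes in 8 groups), a library was checked for standing far from the other 3, which chance alone gives in about 1 group in 20. *Krt8* in KO at P1 had a library at 42.0 CPM, with the others at 4.15 to 4.68. *Nes* in KO at P1 had a library at 209 CPM, with the others at 356 to 386. Both values belong to KO replicate 4, the library with high *Krt19*, *Cldn7* and *Nefl*. *Krt8* in WT at P21 had a library at 0.0238 CPM, which is 1 count, with the others at 0.0966 to 0.0984. *Synm* in WT at P21 had a library at 792 CPM, with the others at 643 to 662.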

How the results depend on the processing

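Scaling by library totals moved the KO to WT log2 fold changes to 1.00 (*Des*) and 0.32 (*Synm*) at P21 and to 1.18 (*Des*), 0.94 (*Vim*), 2.06 (*Nes*) and -0.14 (*Synm*) at P35, and it reversed the WT step of *Des* from P1 to P14 (-0.41, adjusted *P*=0.00229 in edgeR). It gave 1157 DEGs at P21 (1052 higher and 105 lower, against 482 and 227) and 4676 at P35 (4350 and 326, against 1324 and 1172), with 5 and 9 chaperone and turnover genes and, at P35, 4 other intermediate filament genes. The WT steps split into 1598 higher and 10025 lower, 246 and 569, and 124 and 171, against 4304 and 5297, 450 and 398, and 210 and 158. DESeq2 gave 93 DEGs at P1 (against 8), 53 at P14 (against 5), 1340 for WT P14 to P21 (against 848), 845 for WT P21 to P35 (against 368) and 0 linkers at P21. Without the low-count filter there were 14 DEGs at P1, 10 at P14 and 0 linkers at P21, and RLE size factors also gave 0 linkers at P21. The fit over all 32 libraries gave 2 DEGs at P1, 744 for WT P21 to P35, and 0 other intermediate filament genes and 0 linkers at P21. An adjusted *P* under 0.05 without a fold limit gave 44, 15, 3187 and 6462 DEGs at P1, P14, P21 and P35, 3929 and 2656 at the later WT steps, and 6 and 11 chaperone and turnover genes at P21 and P35. The cause of these moves was not tested.

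With the replicate number as a block there were 2 DEGs at P1, 98 at P14, 144 for WT P14 to P21 and 175 for WT P21 to P35, 0 other intermediate filament genes at P21 and 0 linkers at P35, and *Nes* left the limits for a DEG at P21. Outside P14 the libraries share only a number: correlations of same-numbered libraries ran from -0.33 to 0.01 at P1, -0.06 to 0.29 at P21 and -0.10 to 0.24 at P35, and from -0.20 to 0.32 over the WT steps. With signs exchanged within pairs, the block for the ratios to *Des*, the 7 differences of -1.75, -0.89, -1.28, -0.56, 3.90, 0.35 and 0.44 each gave *P*=0.125 in the exact permutation test, the smallest that 4 pairs allow.

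Leaving out 1 library at a time, *Krt8* at P1 ranged from 0.23 (without KO replicate 4) to 2.20. DEGs ranged from 0 to 15 at P1 (15 without KO replicate 4), 1 to 4 at P14, 417 to 626 at P21, 349 to 1364 for WT P14 to P21 (1364 without WT P14 replicate 4) and 116 to 264 for WT P21 to P35. Called genes ranged from 0 to 1 for other filaments and for linkers and 1 to 3 for chaperones and turnover at P21, and 1 to 3 for linkers at P35. *Vim* from WT P21 to P35 ranged from -0.22 to 0.01 (without WT P21 replicate 2), and *Synm* from WT P14 to P21 was called without WT P14 replicate 4 (0.61). The ratio differences ranged from -1.85 to -1.60 and -1.05 to -0.76 for *Vim*, -1.44 to -1.08 and -0.67 to -0.43 for *Nes*, and 3.85 to 3.95, 0.30 to 0.40 and 0.38 to 0.53 for *Synm*; 3 against 4 libraries cannot give an exact *P* under 0.0571. The 5 members called from WT P1 to P14 were called in all 8 such fits. Of the 3 genes named as most like a member, 0 for *Des* and *Synm* and 1 each for *Krt8* and *Krt18* were among the 3 by Spearman's rho and also over P21 and P35, and 0 for *Nes* by Spearman's rho. Keratin levels in WT after P14 are limited by depth, at 0 to 14 counts a library.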
